A study of Homo sapiens with 4 samples.

Results

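Chromosome 19 of the human genome carries long runs of zinc finger genes, and 230 of them were followed here in SK-N-BE(2) neuroblastoma cells with and without a knockdown of IGF2BP3. They were chosen by 3 conditions. The protein-coding symbol was made of ZNF and a number, with or without a closing letter. The gene lay on chromosome 19 and had a count of at least 20 reads in each of the 4 libraries. The counts of the libraries therefore chose the genes, so that they are expressed in both groups is no finding. The table held 247 chromosome 19 genes of that name among its 64252 rows, and 17 fell under the floor of 20 counts. Of those 17 genes, 11 were still tested and 3 stood at 0 in each library.

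The group shIGF2BP3 consisted of 2 libraries from SK-N-BE(2) cells in which a short hairpin targeted IGF2BP3, and the group shControl of 2 libraries from the same line with a control hairpin. SK-N-BE(2) is an established human neuroblastoma line with amplified MYCN. IGF2BP3 binds mRNAs, among them those marked by m6A methylation, and by its title the series asks whether it stabilises the mRNA of E2F2 in that way. No other treatment is named for either group. How many hairpins were used, whether the cells were clones or pools, and whether replicates were separate cultures is not given in the sources used here, so the p-values rest on a spread between libraries that could be technical alone.

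Most zinc finger proteins of chromosome 19 pair an array of DNA-binding fingers with a KRAB domain near the amino end. The KRAB domain recruits the corepressor TRIM28, which brings the histone methyltransferase SETDB1, heterochromatin proteins of the CBX family and the deacetylase complex NuRD. Many of these proteins bind and silence families of transposable elements, and the genes themselves arose by repeated tandem duplication, so that neighbours are often close relatives. The fingers of each protein read a stretch of DNA, and arrays differ between relatives.

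The label of the knockdown held at the RNA level: IGF2BP3 had 28.7 and 31.9 CPM in the shIGF2BP3 libraries, against 156.5 and 138.9 CPM in the shControl libraries (log2 fold change -2.28, SE 0.09, adjusted p = 1.655e-12 in edgeR's quasi-likelihood test). CPM are counts scaled to a common library total by TMM. Totals ran from 26755695 to 31946756 counts. All 10 adrenergic neuroblastoma markers examined were detected, with summed levels of 5823 to 6211 CPM in shIGF2BP3 and 7654 to 7932 CPM in shControl. Summed levels of 5 leukocyte markers were 2.70 to 2.75 CPM against 1.05 to 1.23 CPM, with CD3E at 0, and those of 5 Schwann cell markers 9.21 to 9.44 CPM against 5.24 to 5.56 CPM, with SOX10 at 0. The 5 fibroblast markers summed to 613.6 to 630.9 CPM in shIGF2BP3 and 519 to 545.1 CPM in shControl, and the 5 epithelial markers to 5.36 to 7.62 CPM against 9.46 to 12.7 CPM. The part of these shifts in the results below was not tested, and in such bulk libraries fewer cells of a type and less RNA per cell cannot be told apart.

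Of the 230 zinc finger genes, 87 (37.8%) were higher and 19 (8.3%) were lower in shIGF2BP3 than in shControl, while 124 did not pass the test (edgeR's quasi-likelihood test, Benjamini-Hochberg adjusted over all tested genes, threshold 0.05). The knockdown moved much of the transcriptome: 51.5% of all 19767 tested genes were called, 25.9% higher and 25.6% lower. The share of zinc finger genes called higher thus stood above that background and the share called lower stood below it. Their log2 fold changes ran from -1.36 to 1.66 with a median of 0.29 and quartiles of -0.10 and 0.64, beside a median of 0.01 over all tested genes. A fold change above 0 was seen in 161 of the 230 (70.0%), against 48.7% of the 12574 protein-coding genes with the same floor. The shifts were small for most members, since 137 (59.6%) lay within 0.5 of 0 on the log2 scale and the median absolute log2 fold change was 0.39, against 0.45 for protein-coding genes with the floor. A change of at least 2-fold was called upward in 15 members and downward in 4, where the background over all tested genes was 10.4% and 9.16%.

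The groups did not overlap in 162 of the 230 genes, where 74.5% of all tested genes had groups that did not overlap, and none of the called genes had overlapping groups. Without the second shIGF2BP3 library 56 genes were higher, and without the first 11 were lower; 43 of the higher and 9 of the lower genes were called with all libraries and without each library in turn. Dropping the floor changed little: of the 241 chromosome 19 genes of this name that were tested, 88 were higher and 20 lower, with a median log2 fold change of 0.30.

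**Figure D1:**
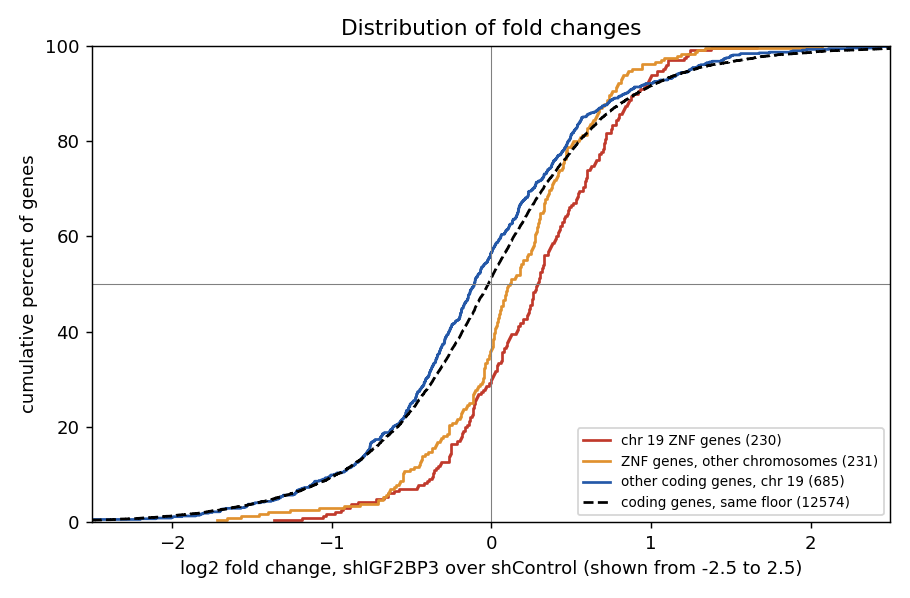
Cumulative percent of genes (vertical axis) by log2 fold change of shIGF2BP3 over shControl (horizontal axis), for the 230 chromosome 19 zinc finger genes, the 231 ZNF genes of other chromosomes, the 685 other coding genes of chromosome 19 and the 12574 coding genes, all with the same floor. The curve of the chromosome 19 zinc finger genes crosses 50% at 0.29, to the right of the others, which cross at 0.12, -0.11 and -0.02.

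Zinc finger genes of other chromosomes leaned the same way, with 83 of 231 higher (35.9%), 38 lower (16.5%) and a median log2 fold change of 0.12. The other protein-coding genes of chromosome 19 leaned the opposite way, with 170 of 685 higher (24.8%), 243 lower (35.5%) and a median of -0.11. Over all protein-coding genes with the floor the counts were 3820 higher (30.4%) and 4175 lower (33.2%), with a median of -0.02. These sets stand side by side as a description, and the differences between them were not tested.

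Chromosome 19 zinc finger genes were weakly expressed as a class. Their levels, divided by exon length to allow comparison between genes, had a median of 1.67 CPM per kilobase, against 4.21 for ZNF genes of other chromosomes and 6.73 for all protein-coding genes with the floor. Summed over the 230 genes, levels were 3236.4 and 3330.6 CPM in the shIGF2BP3 libraries and 2816.3 and 2834.3 CPM in the shControl libraries. The 2 shIGF2BP3 libraries thus stood above both shControl libraries, and the median gene did too, at 9.0 and 9.28 CPM against 7.82 and 7.81 CPM. In every library these 230 genes held a small share of all counts, 0.333% and 0.342% in shIGF2BP3 and 0.271% and 0.278% in shControl.

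The 5 genes with the highest levels per kilobase were ZNF358, ZNF146, ZNF121, ZNF428 and ZNF253. ZNF358, at 41.1 CPM per kilobase the most abundant, had 60.8 and 56.4 CPM in shIGF2BP3 and 109.7 and 113.0 CPM in shControl, and fell by 0.93 on the log2 scale (SE 0.08, adjusted p = 2.438e-08). ZNF146, a protein made almost wholly of fingers, had 102.2 and 111.5 CPM in shIGF2BP3 and 117.8 and 117.9 CPM in shControl, and its log2 fold change of -0.14 (SE 0.07) did not pass. Neither of these genes carries a KRAB pattern, nor do ZNF121 and ZNF428. ZNF121 had a log2 fold change of -0.19 (SE 0.08, adjusted p = 0.0477), a call lost without either shIGF2BP3 library or the first shControl library, where adjusted p ran from 0.0578 to 0.293. ZNF428 stayed near 0 at 0.08 (SE 0.12). The remaining gene of these 5, the KRAB gene ZNF253, had 41.5 and 49.7 CPM in shIGF2BP3 and 30.9 and 35.4 CPM in shControl; its log2 fold change of 0.46 (SE 0.11, adjusted p = 0.00226) missed the threshold without the second shIGF2BP3 library (adjusted p = 0.0515).

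The 4 falls of at least 2-fold all sat in the run from ZNF101 to ZNF254 (chr19:19668796-24129961 in GRCh38), next to genes that rose. This stretch holds 32 of the 230 genes among 37 in all. The 4 of 32 stand beside 9.16% of all tested genes called at least 2-fold lower, and their grouping was not tested. Of these 32, 13 were higher (40.6%), 7 lower (21.9%) and 12 not passed, against 25.9% and 25.6% of all tested genes. The median log2 fold change was 0.07, with a range from -1.36 to 1.25. ZNF93, which binds and represses L1 retrotransposons in primates, had 5.15 and 5.65 CPM in shIGF2BP3 and 13.5 and 14.2 CPM in shControl (log2 fold change -1.36, SE 0.18, adjusted p = 5.835e-06). ZNF90, which lies beyond ZNF682 on the same strand, had 10.5 and 10.8 CPM in shIGF2BP3 and 24.7 and 23.7 CPM in shControl (log2 fold change -1.19, SE 0.14, adjusted p = 1.12e-06). In both genes each shIGF2BP3 library lay far under each shControl library, though both were picked from called genes without overlap. ZNF91, the repressor of SVA retrotransposons in humans and a close relative from the same run, moved the other way. It had 53.8 and 62.2 CPM in shIGF2BP3 and 32.6 and 37.8 CPM in shControl (log2 fold change 0.71, SE 0.10, adjusted p = 1.685e-05), again with no overlap.

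ZNF626 and ZNF708, further genes of that run chosen after their values were seen because their promoters could be set beside those of ZNF93 and ZNF90, also rose. ZNF626 had counts of 915 and 761 in shIGF2BP3 and 359 and 494 in shControl, and a log2 fold change of 1.04 (SE 0.13, adjusted p = 4.044e-06). ZNF708 had counts of 711 and 685 in shIGF2BP3 and 263 and 448 in shControl, and a log2 fold change of 1.04 (SE 0.16, adjusted p = 2.297e-05). The groups of both genes were apart, and both calls held without each library in turn.

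The promoters of these 4 genes resembled each other in sequence although the genes moved in opposite directions, and they are shown for that reason. The fifth, of ZNF470 from another run, is the promoter of the member with the second highest rise and serves as an unrelated sequence. Each line gives 250 bases before to 50 after the RefSeq start on GRCh38.p14, read 5′ to 3′ on the gene's strand, with capitals for matches on either strand to the CCAAT box, the TATA box or the ETS motif. Positions were chr19:19900696-19900995 (plus strand) for ZNF93, chr19:20077750-20078049 (plus) for ZNF90, chr19:20661522-20661821 (minus) for ZNF626, chr19:21329361-21329660 (minus) for ZNF708 and chr19:56567218-56567517 (plus) for ZNF470.
ZNF93: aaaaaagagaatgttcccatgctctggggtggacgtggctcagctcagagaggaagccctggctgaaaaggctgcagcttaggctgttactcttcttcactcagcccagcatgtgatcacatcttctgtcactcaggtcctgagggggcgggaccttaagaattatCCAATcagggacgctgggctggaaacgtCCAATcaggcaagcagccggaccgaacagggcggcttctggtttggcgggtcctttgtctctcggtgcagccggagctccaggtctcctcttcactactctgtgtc
ZNF90: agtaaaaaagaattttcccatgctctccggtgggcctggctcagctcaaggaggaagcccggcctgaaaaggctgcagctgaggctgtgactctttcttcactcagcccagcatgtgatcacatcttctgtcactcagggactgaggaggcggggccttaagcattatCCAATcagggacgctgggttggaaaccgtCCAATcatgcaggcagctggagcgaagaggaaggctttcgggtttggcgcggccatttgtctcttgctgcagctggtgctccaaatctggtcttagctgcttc
ZNF626: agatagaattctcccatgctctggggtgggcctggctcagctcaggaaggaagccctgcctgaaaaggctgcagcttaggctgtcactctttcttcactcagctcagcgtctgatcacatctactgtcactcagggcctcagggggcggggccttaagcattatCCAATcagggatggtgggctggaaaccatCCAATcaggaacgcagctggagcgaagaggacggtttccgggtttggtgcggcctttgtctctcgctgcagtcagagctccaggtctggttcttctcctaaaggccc
ZNF708: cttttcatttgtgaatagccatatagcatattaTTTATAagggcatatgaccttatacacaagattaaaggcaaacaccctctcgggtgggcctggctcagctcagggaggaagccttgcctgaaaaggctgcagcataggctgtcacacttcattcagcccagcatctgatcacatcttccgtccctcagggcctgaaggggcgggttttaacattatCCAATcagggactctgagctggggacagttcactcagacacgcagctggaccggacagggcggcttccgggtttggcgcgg
ZNF470: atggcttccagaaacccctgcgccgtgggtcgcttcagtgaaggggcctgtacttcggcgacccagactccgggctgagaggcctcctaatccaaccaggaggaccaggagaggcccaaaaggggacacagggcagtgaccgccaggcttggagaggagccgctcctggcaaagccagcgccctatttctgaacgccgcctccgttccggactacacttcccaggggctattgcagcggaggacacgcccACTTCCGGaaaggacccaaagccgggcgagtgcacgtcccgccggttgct
Between the 4 promoters of the run, 82.7% to 86.4% of aligned bases were identical, while ZNF470 shared at most 56.0% with any of them. ZNF93, ZNF90 and ZNF626 each held 2 CCAAT matches, and ZNF708 held 1. ZNF708 also held 1 match to TATAAA, on the opposite strand and near the upstream end of the window. ZNF470 held 1 ETS match, also on the opposite strand. A match is a run of letters in this window and says nothing of binding in these cells.

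Promoters were matched for 206 of the 230 genes and read with the same windows as all 27305 RefSeq promoters of the table. The wider set was not limited to coding or expressed genes, so the sets are unlike, and differences between them were not tested. The ETS motif CCGGAAGT stood in 20.4% of the zinc finger promoters and in 4.44% of all promoters. It was found in 15 of 77 genes that rose (19.5%), in 1 of 19 that fell (5.26%) and in 26 of 110 that did not pass (23.6%). The CCAAT box was also common, in 54.4% of the zinc finger promoters and 35.7% of all promoters, and stood in 48.1% of genes that rose and 68.4% of those that fell. TATAAA was rare at 1.94%, against 12% of all promoters, and so was the MYC and MYCN E-box CACGTG at 3.88%, against 7.43%. The E2F motif TTTCCCGC stood in 0.971% of the zinc finger promoters and 1.66% of all, the YY1 motif AAGATGGCG in 3.88% and 1.85%, the NRF1 motif GCGCATGCG in 2.91% and 2.10%, and the CRE TGACGTCA in 2.91% and 1.98%. All motifs were searched on both strands, and matches of one may overlap those of another. The zinc finger promoters held a median of 20 CpG pairs, against 14 over all promoters.

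Besides ZNF93, ZNF90 and ZNF358, the 10 called genes with the lowest fold changes included 3 more from the run that ends at ZNF254. ZNF486 had 9.74 and 8.46 CPM in shIGF2BP3 and 18.38 and 19.01 CPM in shControl (log2 fold change -1.04, SE 0.15, adjusted p = 1.855e-05). ZNF492 had 2.37 and 2.70 CPM in shIGF2BP3 and 5.61 and 4.95 CPM in shControl (log2 fold change -1.05, SE 0.27, adjusted p = 0.00287). ZNF724 fell by 0.88 (SE 0.20, adjusted p = 0.00105). Sequence is shared for the last pair: 33.3% of the 50-base windows of ZNF492 also occur in other genes, most in ZNF98, and 55.9% of those of ZNF724, so their counts are uncertain. From other runs came ZNF551, with 5.08 and 5.18 CPM in shIGF2BP3 and 9.77 and 9.97 CPM in shControl (log2 fold change -0.94, SE 0.20, adjusted p = 0.000568), and the weakly expressed ZNF560, ZNF285 and ZNF345. Those last 3 genes had log2 fold changes of -0.98 (SE 0.30), -0.88 (SE 0.31) and -0.83 (SE 0.32), with adjusted p of 0.0113, 0.0248 and 0.0368. ZNF560 missed the threshold without the first shIGF2BP3 library (adjusted p = 0.125), ZNF285 without either shIGF2BP3 library or the first shControl library (0.0573 to 0.231), and ZNF345 without any 1 of the 4 libraries (0.0548 to 0.231).

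ZNF470, a KRAB gene, had the second highest rise. It had 18.04 and 17.42 CPM in shIGF2BP3 and 7.84 and 5.94 CPM in shControl (log2 fold change 1.38, SE 0.17, adjusted p = 2.615e-06). ZNF471, from the same run and known as a gene silenced by promoter methylation in several cancers, had 10.4 and 13.2 CPM in shIGF2BP3 and 5.01 and 4.92 CPM in shControl (log2 fold change 1.25, SE 0.20, adjusted p = 5.134e-05). ZNF583 and ZNF582, from the same run, had log2 fold changes of 1.21 (SE 0.22, adjusted p = 0.000154) and 1.22 (SE 0.38, adjusted p = 0.0121). ZNF582, a gene whose promoter methylation is used as a marker in cervical cancer, was weakly expressed at 2.37 and 3.17 CPM in shIGF2BP3 and 0.854 and 1.47 CPM in shControl. Its call was lost without the second shIGF2BP3 library (adjusted p = 0.101) and without the first shControl library (adjusted p = 0.0948).

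ZNF177 had the highest fold change of the 230 genes, with 6.74 and 5.91 CPM in shIGF2BP3 and 3.08 and 1.05 CPM in shControl (log2 fold change 1.66, SE 0.34, adjusted p = 0.000631). The shControl libraries differed widely from each other, and the log2 fold change was 2.58 without the first of them and 1.02 without the second. Of its 50-base windows, 97.8% occur in other genes, most in the readthrough gene ZNF559-ZNF177, so the split of reads between them is uncertain. ZNF320 was the most abundant of the top 10 with 38.7 and 41.7 CPM in shIGF2BP3 and 18.9 and 18.8 CPM in shControl (log2 fold change 1.09, SE 0.11, adjusted p = 2.162e-07). Of its windows 99.5% occur in other genes, most in ZNF468, which rose too (log2 fold change 0.71, SE 0.19), so those values cannot be treated as separate.

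ZNF69 had 12.1 and 12.4 CPM in shIGF2BP3 and 5.91 and 5.53 CPM in shControl (log2 fold change 1.11, SE 0.18, adjusted p = 6.15e-05). ZNF132, reported as methylated in prostate cancer, had 7.20 and 5.21 CPM in shIGF2BP3 and 2.90 and 2.88 CPM in shControl (log2 fold change 1.11, SE 0.26, adjusted p = 0.00175). All genes of this list have groups apart because they were chosen that way. The list of 10 ends with the weakly expressed ZNF676 (log2 fold change 1.25, SE 0.35, adjusted p = 0.00664) and ZNF565 (1.23, SE 0.38, adjusted p = 0.0129). ZNF676 missed the threshold without the second shControl library (adjusted p = 0.0749). ZNF565 missed it without the first shIGF2BP3 library or the second shControl library (adjusted p 0.0655 and 0.230), its log2 fold change was 2.22 without the first shControl library, and its exons overlap those of ZNF146 on the other strand.

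**Figure D2:**
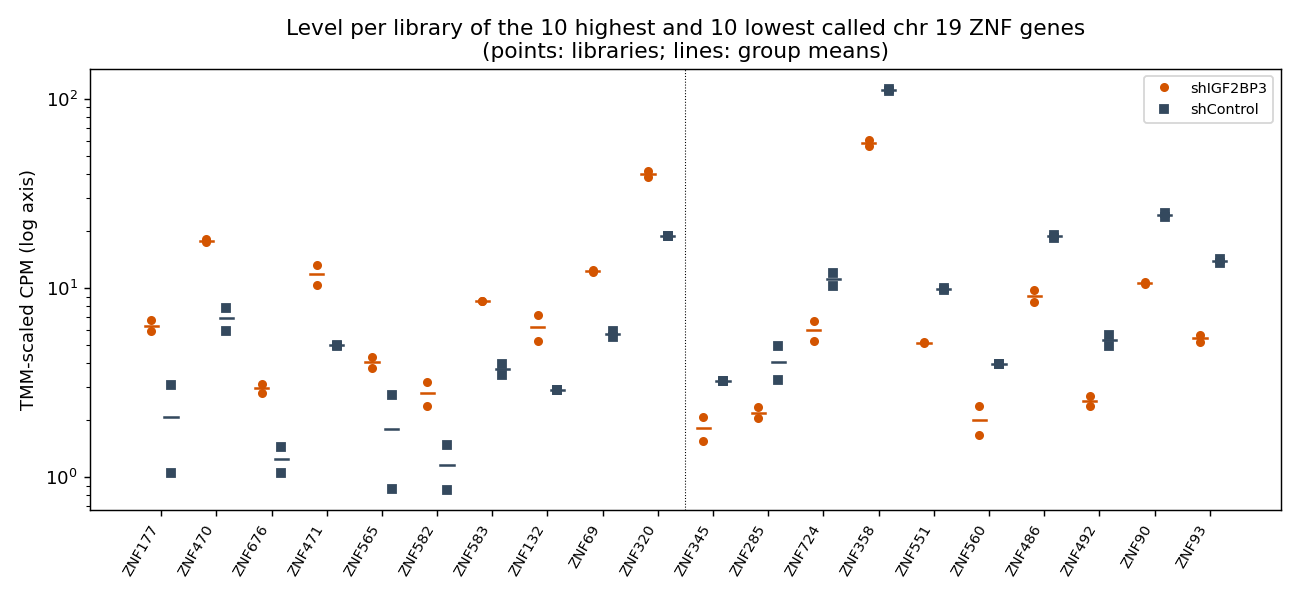
Level in each library (TMM-scaled CPM, log axis) of the 10 called chromosome 19 zinc finger genes with the highest fold changes (left of the dotted line) and the 10 with the lowest (right), shIGF2BP3 libraries as circles left of shControl libraries as squares, with lines at group means. All 20 genes were picked from called genes whose groups did not overlap, so the separation of their points is no finding. The shControl points of ZNF177, ZNF565 and ZNF582 spread most.

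Along the chromosome the genes were split into runs wherever the starts of consecutive genes lay more than 500 kb apart, which gave 10 runs with at least 5 of the 230 genes and 218 genes in them. The run from ZNF175 to ZNF331 (chr19:51571298-53580269) leaned most to one side. Of its 34 genes 20 were higher (58.8%) and 0 lower in edgeR's test, against 25.9% and 25.6% of all tested genes. The median log2 fold change was 0.58, with 30 genes above 0. In the run 0 genes were lower at an unadjusted p under 0.05, and 0 by DESeq2 or limma voom. The count of higher genes was 12 by DESeq2 and 11 without the second shIGF2BP3 library, where 1 gene was lower, and the median stayed between 0.51 and 0.57 with each library left out. Its members are KRAB genes with 1 exception, ZNF83. Some that rose share exons on the same strand, such as ZNF577 with ZNF649 and ZNF432 with ZNF841, so those values may not be separate. ZNF432, chosen after its values were seen as the second highest rise of the run, had counts of 407 and 381 in shIGF2BP3 and 159 and 228 in shControl (log2 fold change 1.09, SE 0.18, adjusted p = 5.096e-05). At the far end of the run the imprinted gene ZNF331 did not follow, with 12.1 and 13.2 CPM in shIGF2BP3 and 14.8 and 16.5 CPM in shControl (log2 fold change -0.31, SE 0.15, adjusted p = 0.0897).

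The run from ZNF575 to ZNF180 (chr19:43525497-44500524) lay near 0. There 4 of 22 genes rose (18.2%), 1 fell (4.5%) and 17 were not called, against 25.9% higher and 25.6% lower over all tested genes. The median over the run was 0.00 on the log2 scale, and -0.02 to 0.11 with each library left out. Without the second shIGF2BP3 library or the first shControl library 2 genes rose. ZNF224, which represses transcription with TRIM28 and is a partner of WT1, had the smallest p there, with 22.9 and 23.5 CPM in shIGF2BP3 and 15.2 and 15.4 CPM in shControl (log2 fold change 0.60, SE 0.13, adjusted p = 0.00072). Near it ZNF227 stood at 13.2 and 12.9 CPM in shIGF2BP3 and 13.7 and 12.6 CPM in shControl, with overlapping groups.

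The other large runs stood between these. Shares called higher were 24.4% in the run from ZNF264, 37.0% from ZNF565, 39.1% from ZNF653, 53.8% from ZNF414 and 37.5% from ZNF628. Over all tested genes the share was 25.9%, so the run from ZNF264 had no larger share of rises. Shares called lower were 2.4%, 3.7%, 8.7%, 15.4% and 12.5% in the same order, against 25.6% of all tested genes. From ZNF264 to ZNF446, at the end of the long arm (chr19:57191500-58481230), 10 of 41 genes rose and 1 fell, with a median of 0.31; ZNF550 led with 18.95 and 18.84 CPM in shIGF2BP3 and 10.1 and 8.82 CPM in shControl (log2 fold change 1.00, SE 0.15, adjusted p = 2.388e-05). From ZNF565 to ZNF573 (chr19:36182060-37817300), 10 of 27 rose and 1 fell, with a median of 0.33; 6 rose without the second shIGF2BP3 library and 5 by DESeq2. ZNF529 had the smallest p there, at a log2 fold change of 0.87 (SE 0.13, adjusted p = 1.712e-05).

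On the short arm, 9 of 23 genes from ZNF653 to ZNF791 (chr19:11483427-12640098) rose and 2 fell, with a median of 0.30, and 5 rose without the second shIGF2BP3 library. Between ZNF414 and ZNF846 (chr19:8509678-9793180) 7 of 13 rose and 2 fell, with a median of 0.30, but 2 rose without the second shIGF2BP3 library and 4 without the first shControl library. ZNF561 led there, with 74.5 and 75.3 CPM in shIGF2BP3 and 47.1 and 45.4 CPM in shControl (log2 fold change 0.70, SE 0.09, adjusted p = 1.908e-06). From ZNF628 to ZNF835 (chr19:55476332-56671783), the home of ZNF470 and ZNF471, 6 of 16 rose and 2 fell, with a median of 0.29. In the run of 5 genes from ZNF554 to ZNF77 only ZNF57 was called (log2 fold change 0.58, SE 0.22, adjusted p = 0.0339, and 0.0527 to 0.193 in 3 of the 4 fits with a library left out). From ZNF302 to ZNF792, also 5 genes, 2 rose and 1 fell, and 1 rose without the second library of either group. ZNF30 had the smallest p there (log2 fold change 0.85, SE 0.19, adjusted p = 0.000918), and the gene that fell was ZNF792 (-0.72, SE 0.19, adjusted p = 0.00391, and 0.0596 without the first shIGF2BP3 library).

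The falls of ZNF551, ZNF580 and ZNF581 held with each library left out. Their log2 fold changes ran from -0.96 to -0.93, -0.66 to -0.50 and -0.80 to -0.55. The other falls in these runs depended on single libraries. None was called without the first shIGF2BP3 library in the runs from ZNF414, ZNF565, ZNF575 and ZNF302, without the first shControl library in those from ZNF565, ZNF575 and ZNF653, or without the second shIGF2BP3 library in that from ZNF575.

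**Figure D3:**
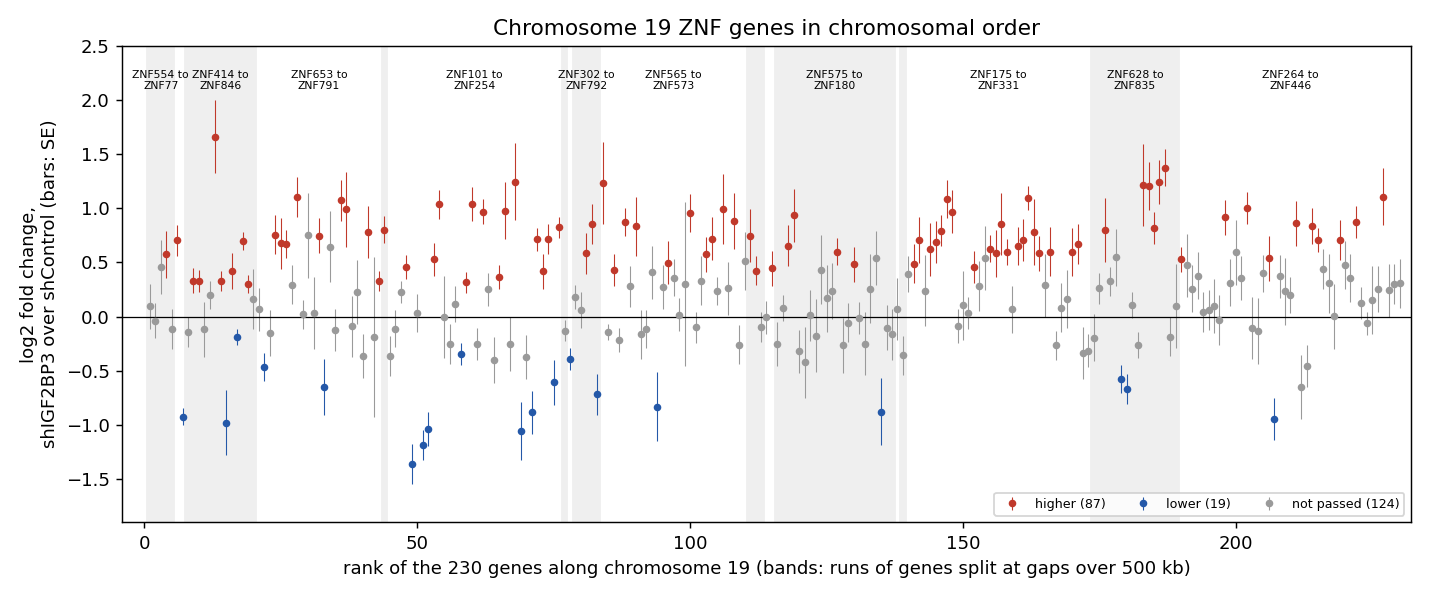
Log2 fold change of shIGF2BP3 over shControl (vertical axis, bars are SE) of the 230 genes by their rank along chromosome 19 (horizontal axis, bands mark runs split at gaps over 500 kb). Red points were higher (87), blue points lower (19) and grey points did not pass (124); the run from ZNF175 to ZNF331 has 20 red and 0 blue points, and the run from ZNF101 to ZNF254 has 13 red and 7 blue.

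Fold changes of neighbours showed little relation to each other. Over 212 pairs of consecutive genes in a run, Pearson's r of their log2 fold changes was 0.03 and Spearman's rho -0.01, as a description across genes that share libraries. Both genes rose in 33 pairs and both fell in 2, while 1 rose and 1 fell in 15. The strands differed somewhat. On the minus strand 47 of 103 genes were higher (45.6%) and 6 lower (5.8%). On the plus strand 40 of 127 were higher (31.5%) and 13 lower (10.2%). In the run from ZNF101 to ZNF254 the contrast was wider. There 9 of 14 minus-strand genes rose (64.3%) and 1 fell (7.1%). Of 18 plus-strand genes 4 rose (22.2%) and 6 fell (33.3%). Over all tested genes 25.9% were higher and 25.6% lower, and the plus-strand shares of the run lay nearer to these than the minus-strand shares. The split by strand was noticed after the values were seen and was not tested.

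A KRAB pattern was found near the amino end of the longest annotated protein in 199 of the 230 genes. Of these, 82 were higher (41.2%) and 11 lower (5.5%), with a median log2 fold change of 0.31. The 31 genes without the pattern had 5 higher (16.1%), 8 lower (25.8%) and a median of 0.07. Over all tested genes 25.9% were higher and 25.6% lower, so the share of falls without the pattern was that of the background. With each library left out, the KRAB genes gave 53 to 69 higher and 6 to 14 lower, the lowest counts being those without the second and without the first shIGF2BP3 library. The genes without the pattern gave 3 to 5 higher and 5 to 8 lower, and a median of -0.09 to 0.09, so its sign is not fixed. The difference between the 2 classes was not tested, and they differ in level too: the median was 1.58 CPM per kilobase with the pattern and 3.24 without it. The pattern is broad and also matched ZNF536, which is not known as a KRAB protein.

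Of the 8 genes without the pattern that fell, ZNF492 and ZNF358 had the lowest fold changes, given above. Those 8 were 25.8% of their class, against 25.6% of all tested genes. ZNF580 and ZNF581, neighbours with few fingers that were chosen after their values were seen, fell by 0.58 (SE 0.13, adjusted p = 0.000968) and 0.67 (SE 0.14, adjusted p = 0.000602). ZNF580 had counts of 493 and 426 in shIGF2BP3 and 664 and 767 in shControl, and ZNF581 had 412 and 337 in shIGF2BP3 and 558 and 688 in shControl, with no overlap in either. Their exons overlap on the same strand, and 16.1% of the windows of ZNF581 occur in other genes, most in ZNF580, so the values may not be separate.

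**Figure D4:**
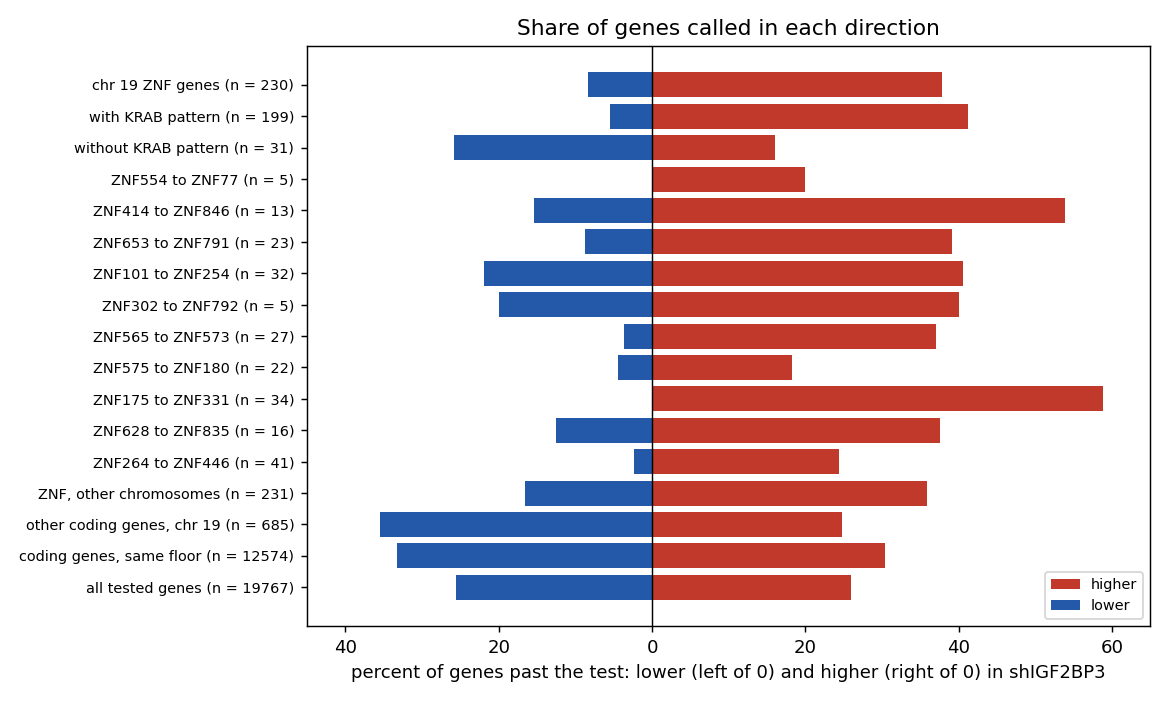
Percent of genes called higher (right of 0) and lower (left of 0) in shIGF2BP3, for the 230 chromosome 19 zinc finger genes, the genes with and without a KRAB pattern, the 10 runs with at least 5 genes, and 4 wider sets. All tested genes stand at 25.9% higher and 25.6% lower, the chromosome 19 zinc finger genes at 37.8% and 8.3%, and the 31 genes without the pattern at 16.1% and 25.8%.

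Genes had 0 to 36 fingers by their spacing of cysteines and histidines, with a median of 12. Spearman's rho of the log2 fold change over the 230 genes was 0.02 with the number of fingers, 0.03 with protein length, 0.14 with exon length, 0.01 with mean CPM and -0.01 with the share of windows found in other genes. Over all tested genes 25.9% were higher and 25.6% lower. With up to 8 fingers, 14 of 44 genes rose (31.8%) and 2 fell (4.5%). With 9 to 12, 27 of 73 rose (37.0%) and 9 fell (12.3%). With 13 to 16, 25 of 69 rose (36.2%) and 7 fell (10.1%). With 17 or more, 21 of 44 rose (47.7%) and 1 fell (2.3%). By abundance, 13 of 54 genes at 2 to 5 CPM were higher (24.1%) and 22 of 41 above 20 CPM (53.7%). The share called lower was 9.3% and 14.6% in these 2 bins, and the median log2 fold change 0.23 and 0.32.

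Some members have a role known from other work, and they were picked for that role after their values were seen. ZNF274, which brings SETDB1 to the 3′ ends of zinc finger genes themselves, had 20.3 and 18.2 CPM in shIGF2BP3 and 10.9 and 10.1 CPM in shControl. It rose by 0.88 on the log2 scale (SE 0.15, adjusted p = 7.851e-05), with the groups apart and the call kept without each library. ZNF649, a repressor of growth factor response genes, had 7.87 and 10.9 CPM in shIGF2BP3 and 5.35 and 6.07 CPM in shControl (log2 fold change 0.71, SE 0.21, adjusted p = 0.00994, and 0.172 without the second shIGF2BP3 library). ZNF350, the BRCA1 partner also called ZBRK1, had a log2 fold change of 0.62 (SE 0.25, adjusted p = 0.0448), lost without either shIGF2BP3 library or the second shControl library (0.0606 to 0.282). ZNF558, a KRAB protein studied in human neural progenitors, had 0.33 (SE 0.12, adjusted p = 0.0239), lost without either shIGF2BP3 library or the first shControl library (0.0669 to 0.162).

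Others with a known role gave no call. ZNF536, a brain-enriched repressor of neuronal differentiation, had 39.8 and 43.3 CPM in shIGF2BP3 and 45.2 and 45.7 CPM in shControl (log2 fold change -0.13, SE 0.10, adjusted p = 0.269). ZNF473, a part of the histone pre-mRNA processing machinery, had 9.32 and 8.16 CPM in shIGF2BP3 and 12.3 and 10.2 CPM in shControl (log2 fold change -0.36, SE 0.18, adjusted p = 0.106). ZNF304, a repressor that recruits TRIM28, had a log2 fold change of 0.04 (SE 0.19) and ZNF382 one of 0.28 (SE 0.19), both with overlapping groups.

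The genes nearest to no change, among those of at least 10 CPM, were ZNF574, ZNF227, ZNF585A, ZNF700 and ZNF682, with log2 fold changes from -0.01 to 0.03 and standard errors of 0.14 to 0.17. ZNF700, for example, had 16.7 and 17.1 CPM in shIGF2BP3 and 17.4 and 15.9 CPM in shControl, so that the groups overlapped.

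At the floor itself, the genes just inside were ZNF582, ZNF565 and ZNF177, whose lowest counts were 23, 27 and 33 reads, each in an shControl library. Just outside lay ZNF296 with 34 and 19 reads in shIGF2BP3 and 36 and 23 in shControl, ZNF600 with 55 and 18 against 22 and 81, and ZNF442 with 16 and 16 against 33 and 51. ZNF442 was called lower (log2 fold change -1.32, SE 0.49, adjusted p = 0.0308), a call lost without either shIGF2BP3 library or the second shControl library (adjusted p 0.107 to 0.200).

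At the RNA level, a list of genes for corepressor, heterochromatin and silencing partners of KRAB zinc finger proteins moved mostly the other way. The list is broad and also holds genes of DNA methylation, such as UHRF1 and DNMT1. Of 29 partners, 19 were lower, 4 higher and 6 did not pass, with a median log2 fold change of -0.42, where 25.6% of all tested genes were lower. TRIM28, the corepressor bound by KRAB, had 166.0 and 161.0 CPM in shIGF2BP3 and 223.4 and 231.6 CPM in shControl (log2 fold change -0.48, SE 0.07, adjusted p = 8.966e-06). SETDB1, which lays down the H3K9 methyl mark, had 76.1 and 74.2 CPM in shIGF2BP3 and 99.4 and 102.2 CPM in shControl (log2 fold change -0.42, SE 0.08, adjusted p = 0.000147). In both genes every shIGF2BP3 library lay below every shControl library.

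The steepest falls of the list were in genes of DNA methylation. UHRF1, which guides DNA methylation to replicated DNA, had 29.3 and 27.5 CPM in shIGF2BP3 and 97.3 and 104.3 CPM in shControl (log2 fold change -1.83, SE 0.09, adjusted p = 1.93e-11). The maintenance methyltransferase DNMT1 had 105.9 and 100.4 CPM in shIGF2BP3 and 283.7 and 312.9 CPM in shControl (log2 fold change -1.53, SE 0.07, adjusted p = 1.122e-11). In both genes the groups were far apart.

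Of the partners with the smallest p, 6 more fell. The heterochromatin protein gene CBX1 fell by 1.42 (SE 0.07), the corepressor RCOR1 by 1.36 (SE 0.08), the H3K9 methyltransferase SUV39H2 by 1.23 (SE 0.12), the deacetylase HDAC2 by 0.66 (SE 0.06), the demethylase KDM1A by 0.63 (SE 0.06) and the heterochromatin protein gene CBX5 by 0.62 (SE 0.06), all with adjusted p of 1.8e-07 or less. Those that rose were CHD3, a NuRD remodeller (0.49, SE 0.10), MORC3 (0.37, SE 0.10), the HUSH subunit TASOR (0.29, SE 0.08) and SMARCAD1 (0.22, SE 0.08), with adjusted p of 0.00132, 0.00331, 0.00536 and 0.0226. TASOR missed the threshold without the second shIGF2BP3 library (adjusted p = 0.0789), and SMARCAD1 without the second library of either group (0.120 and 0.331). The other HUSH subunits MPHOSPH8 and PPHLN1 had log2 fold changes of 0.09 (SE 0.10) and -0.10 (SE 0.08) and did not pass. Over the list, 15 to 19 genes were lower and 2 to 4 higher with each library left out.

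**Figure D5:**
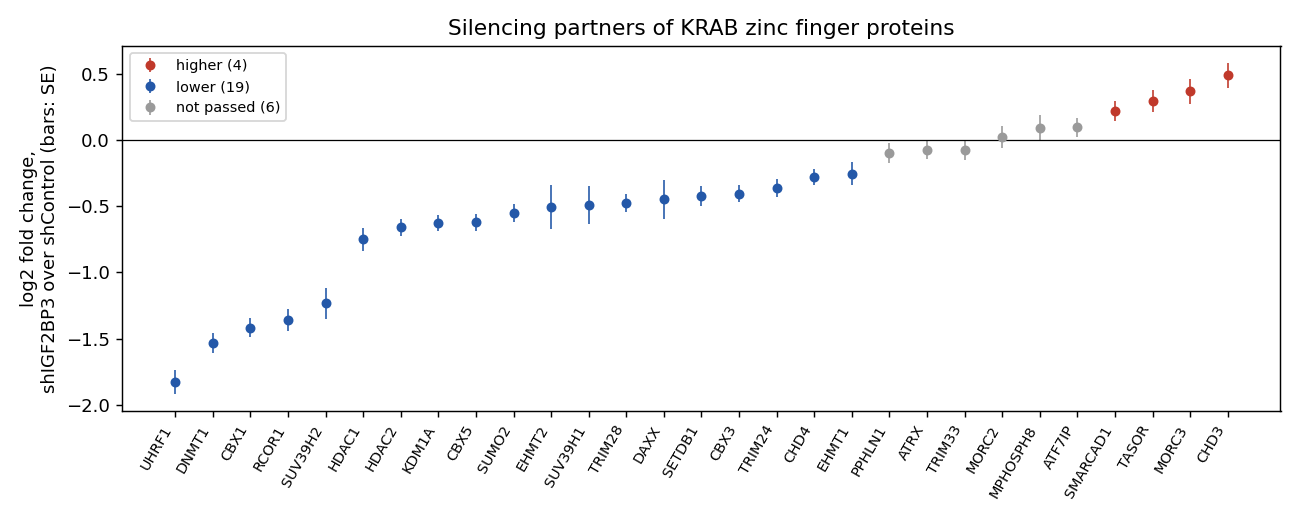
Log2 fold change of shIGF2BP3 over shControl (vertical axis, bars are SE) of the 29 silencing partners of KRAB zinc finger proteins, in order of their values. Of these, 19 lie below 0 and passed the test (blue), 4 lie above 0 and passed (red) and 6 did not pass (grey), with UHRF1 lowest at -1.83 and CHD3 highest at 0.49.

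Pseudogenes named in the same way gave few values. Of 16 such rows on chromosome 19, 6 met the floor, and 1 of them rose and 2 fell. ZNF542P, beside ZNF582 and ZNF583, rose by 0.76 on the log2 scale (SE 0.14, adjusted p = 0.000212). ZNF826P, from the run that holds ZNF93, had 4.73 and 4.30 CPM in shIGF2BP3 and 12.03 and 9.97 CPM in shControl (log2 fold change -1.27, SE 0.21, adjusted p = 4.901e-05), and ZNF887P fell by 1.37 (SE 0.31, adjusted p = 0.0012).

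Near-identical copies and overlapping exons limit how far single genes can be told apart. Exons were shared with a gene on the same strand in 78 of the 230 genes and with a gene on the other strand in 73, and 50 had at least 10% of their 50-base windows in another gene. The 96 genes with none of these had 37 higher and 7 lower and a median log2 fold change of 0.32, and the other 134 had 50 higher and 12 lower and a median of 0.26.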

How the data were processed

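The authors deposited whole-number counts per Ensembl gene for 4 libraries of RNA from SK-N-BE(2) cells, made with an Illumina TruSeq kit per the labels' protocols. The submitters' processing notes name HISAT2 2.2.0, StringTie and hg38. How reads were assigned to genes, with which annotation and whether by strand is not given in the sources used here, so antisense, overlapping and near-identical genes are uncertain, and counts made by StringTie would be rounded estimates.

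The genes studied, the list of partners and the named genes were chosen with earlier results of these data known. Named genes were IGF2BP3, the 10 highest and 10 lowest called members with groups that did not overlap, the 5 most abundant per kilobase, the 5 nearest 0 among members of at least 10 CPM without a call, the 3 on either side of the floor, the smallest p in each run of at least 5 members, and the 8 smallest p among partners. Others are marked where they occur, and 1 gene of the list of partners is not reported here. Symbols came from a table of gene names (56105 rows) and GENCODE release 29 (486), while 7661 rows had none. Coordinates, exon lengths and coding sequences are from GENCODE release 29 on GRCh38. Fingers and the KRAB pattern were counted in the translated longest coding sequence.

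Counts were tested on the whole table with edgeR 4.0.16 in R 4.3.3 (filterByExpr with a smallest count of 10, TMM, robust quasi-likelihood fit, Benjamini-Hochberg threshold 0.05), leaving 2 residual degrees of freedom and adding a prior of 15.06. The biological coefficient of variation was 12.62%, and replicates differed by more than sampling noise (chi-square per degree of freedom 7.26 in shIGF2BP3 and 8.43 in shControl). An exact permutation test of 2 against 2 cannot go below a p of 0.333 and was not used. In simulated counts over 19267 genes, the test found 13 of 67 genes simulated with a 1.5-fold change, 61 of 67 at 2-fold and 66 of 66 at 4-fold. It made 4 false calls. Only those genes were changed, and all genes had the same spread, whereas 51.5% of tested genes were called in the real data. The adjusted threshold was therefore stricter in the simulation, and its shares do not measure the power of the real test. Alternatives were other scalings, filters, floors and tests (DESeq2 1.42.0, limma 3.58.1), a replicate block and leaving out each library. An older edgeR fit and a set without shared sequence were added after seeing the data.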

Additional observations from a re-analysis of the deposited data

How the results depend on the processing

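Under RLE scaling 87 members were higher and 19 lower, with limma voom 83 and 17, with the older edgeR fit 82 and 18, with no low-count filter 68 and 15, and by DESeq2 60 and 13. Scaling by total counts alone gave 94 and 16 and a median log2 fold change of 0.372, where the median of all genes tested moved to 0.09. Floors of 50 and 100 counts left 82 and 71 higher and 17 and 14 lower. Asking for a 2-fold change left 15 and 4, and the members without shared exons or windows gave 37 and 7 with a median of 0.316; both are smaller by construction. With each library left out, 56 to 72 were higher, 11 to 22 lower and the median ran from 0.25 to 0.304.

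With a replicate block 89 were higher and 18 lower. Libraries of the same number did not deviate together (correlation -0.004). With 2 libraries per group this cannot tell whether the numbers mark paired cultures, and the sources used here do not say.

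For the 57 named genes, 571 of 627 values under the alternatives kept their direction and side of the threshold, 55 lost the call, 1 gained it and 0 reversed. The genes that lost a call were ZNF121, ZNF253, ZNF285, ZNF345, ZNF350, ZNF442, ZNF558, ZNF560, ZNF565, ZNF57, ZNF582, ZNF649 and ZNF676. The median member had under 10 CPM in each library.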
